A study of Mus musculus and Homo sapiens with 67 samples.

Results

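The 46 genes described here form the DNA replication and S phase programme: origin licensing, helicase activation, polymerases, clamp loading, nucleotide supply and the checkpoint and repair factors of S phase. They were named as a list, chosen with earlier results of these data known, as were the other gene lists used below. Matching was by gene symbol, ignoring case, in 4 deposited tables. All 46 were found among 60564 gene rows in each human table and 55335 in each mouse table. RNA-seq values were used for 52 samples of pancreatic cancer models. The human lines PSN1 and SW1990 are established from pancreatic cancers. KPC cells are mouse pancreatic cancer cells of the KPC model, and the orthotopic tumours are KPC tumours at the organ of origin in mice. Column headers read KPC1199 for the tumours and KPC alone for the cells, so they do not show whether the line was the same.

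Each cell line had 4 arms of 3 samples: tazemetostat, RMC-6236, the combination of both, and DMSO as control. For the orthotopic tumours there were 4 per arm, and control mice received vehicle. Tazemetostat inhibits EZH2, the enzyme that methylates histone H3 at lysine 27, while RMC-6236 binds and blocks RAS proteins in their GTP-bound state. The labels used here give no dose, treatment time, host strain or age, and they do not say whether cell samples came from separate cultures. A p-value in cells is therefore measured against the spread within these arms of 3 samples, possibly a technical spread. The 4 arms share an estimate of that spread for each gene, which limma moderates over all genes.

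Before a cell copies its DNA, origins are licensed by the origin recognition complex, CDC6 and CDT1, which load the MCM2 to MCM7 helicase, and CDC45 and the GINS complex then turn that helicase on. Most of these genes are transcribed in G1 and S phase by E2F factors, which the retinoblastoma protein holds back until cyclin-dependent kinases phosphorylate it. RAS signalling feeds into this step through the induction of cyclin D.

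Values are the deposited FPKM, fragments scaled by transcript length and by library total. With no totals given, sequencing depth is unknown and precision is read from the spread between samples alone. Changes are differences of mean log2(FPKM + 1) with their standard error, which understates the change of low genes, and a gene is called where limma's Benjamini-Hochberg adjusted p over all tested genes of that table is below 0.05. Median-ratio scale factors spanned 0.968 to 1.03 (PSN1), 0.882 to 1.06 (SW1990), 0.981 to 1.02 (KPC cells) and 0.975 to 1.02 (tumours). The lowest SW1990 factor belonged to replicate 1 of the RMC-6236 arm, which stood apart, and SW1990 counts are given with and without it. Epithelial marker genes, such as KRT19, were present in all 4 tables of the series. The 3 pan-leukocyte markers summed to 58.3 to 59.0 FPKM with tazemetostat, 43.0 to 44.2 with RMC-6236, 23.6 to 25.01 with the combination and 80.4 to 83.3 in control in PSN1 cells, and to 36.4 to 40.2, 28.0 to 29.2, 24.1 to 24.6 and 43.4 to 47.4 FPKM in that order of arms in SW1990 cells. Nearly all of it was LAPTM5. In KPC cells they summed to 10.3 to 11.3, 0.201 to 0.274, 0.127 to 0.178 and 5.87 to 6.38 FPKM in the same order, nearly all of it Cd53. PTPRC was at most 0.0244 FPKM in any cell line library. These sums were lower with RMC-6236 and the combination in cells, as the replication genes were, and their part in those results was not tested. In 2 combination tumours, replicates 2 and 4, acinar and islet markers were highest, and tumour counts are given without them as well. The 4 tables were normalised separately, so no value was tested across tables, and changes set side by side come from separate fits.

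**Figure D1:**
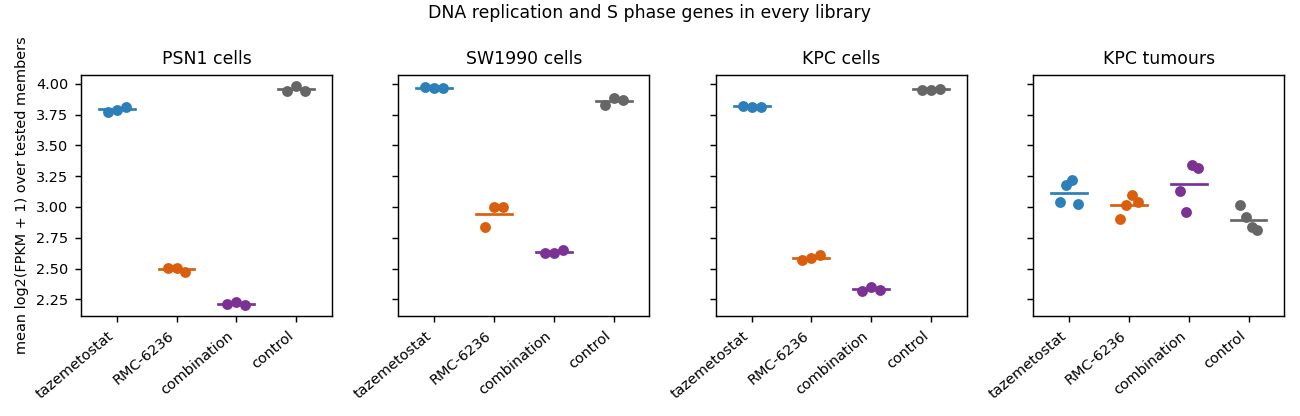
Mean log2(FPKM + 1) over the tested members in every library of the 4 tables. Each point is 1 library and each line the mean of an arm. In the 3 cell lines the RMC-6236 and combination libraries lie below tazemetostat and control with no overlap, and in tumours the arms overlap.

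RMC-6236 lowered the replication genes in all 3 cell lines. In PSN1 cells 46 of 46 members were lower than control, against 34.6% of the 13358 genes tested, with a median log2 change of -1.49 beside 0.08 for all genes. In SW1990 cells 45 of 46 were lower, against 41.7% of 12913 genes, with a median of -0.94 beside -0.06 for all genes, and the count was also 45 without RMC-6236 replicate 1. In KPC cells 46 of 46 were lower, against 35.8% of 12567 genes, with a median of -1.30 beside 0.02. The median ratio of mean FPKM, RMC-6236 over control, was 0.328 in PSN1, 0.472 in SW1990 and 0.319 in KPC cells. No member was higher in any cell line, against 45.8% of all genes in PSN1, 30.7% in SW1990 and 37.9% in KPC cells. These 137 calls held in all 18 alternative settings and left-out libraries.

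The combination, set against the same control samples, also lowered the replication genes in cells. It left 46 of 46 members below control in PSN1 cells (37.1% of all genes were lower), 45 of 46 in SW1990 cells (40.9%) and 46 of 46 in KPC cells (38.7%). Median log2 changes were -1.76, -1.22 and -1.59 in that order of lines. Again 0 were higher, against 45.5%, 38.3% and 37.8% of all genes. The member without a call in SW1990 cells was E2F2 in both comparisons, at -0.14 ± 0.06 with RMC-6236 (adjusted p = 0.068) and 0.05 ± 0.06 with the combination (adjusted p = 0.43). Left-out fits gave 45 to 46 members lower with RMC-6236 in SW1990 cells.

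**Figure D2:**
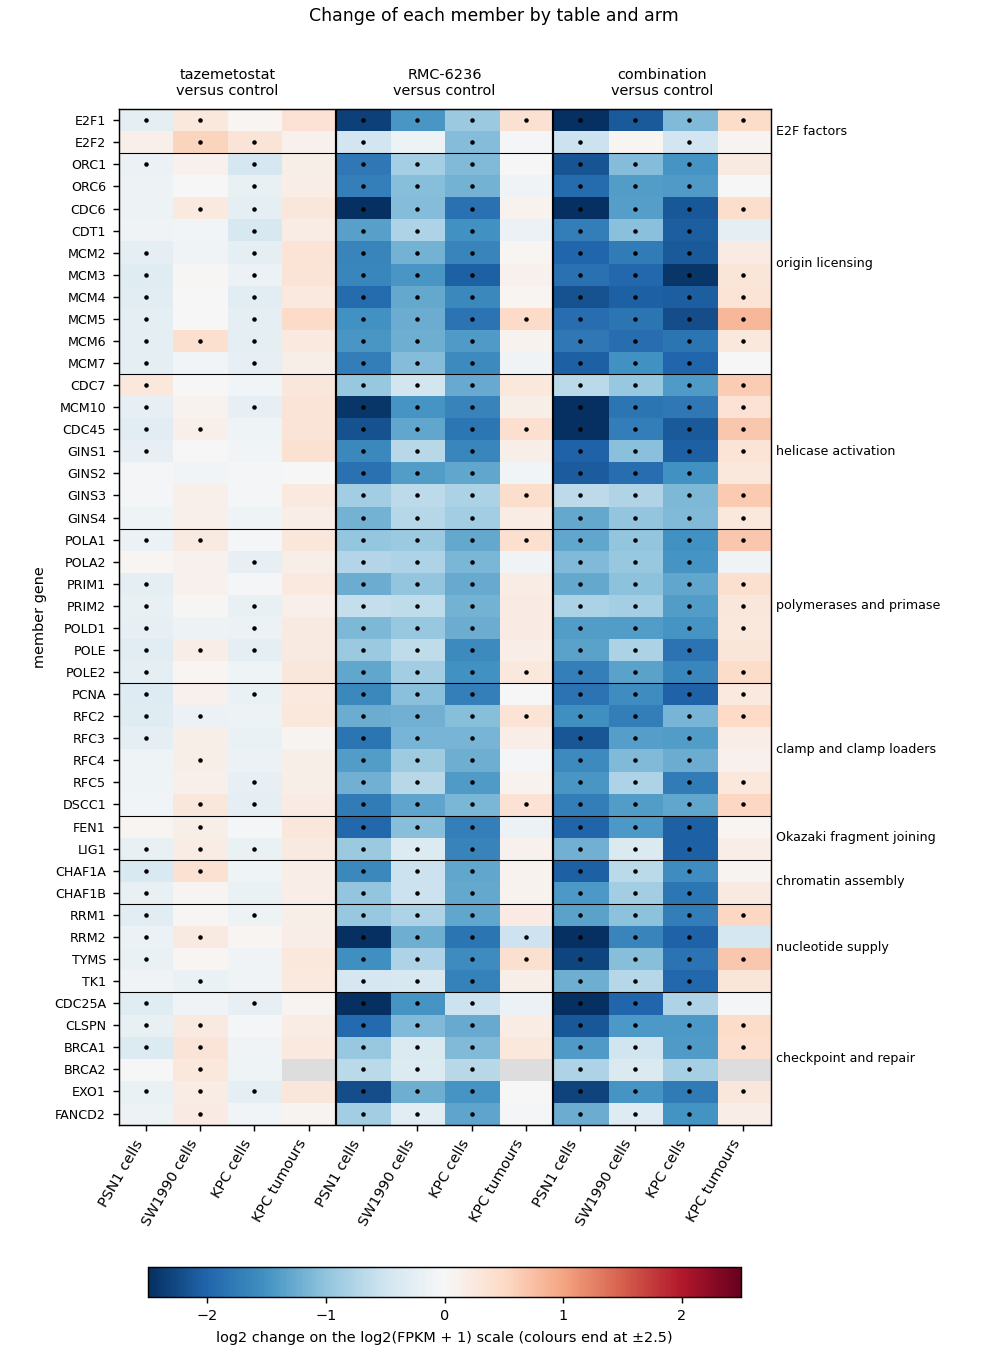
Log2 change of each member (rows, grouped by role) for tazemetostat, RMC-6236 and the combination against control in the 4 tables (columns). Dots mark called changes, and grey marks Brca2 in tumours, which was below the filter. The RMC-6236 and combination columns of the 3 cell lines are blue throughout apart from E2F2 in SW1990 cells, and those of the tumours are mostly pale red.

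Every change with RMC-6236 given for a member in cells passed the test, apart from that of E2F2 in SW1990 cells. E2F1 is an activator of S phase genes and also its own target. In PSN1 cells E2F1 stood at 26.2, 25.1 and 24.98 FPKM with tazemetostat, 5.25, 5.098 and 5.11 with RMC-6236, 2.78, 3.57 and 2.97 with the combination, and 30.3, 29.5 and 30.2 in control. SW1990 cells had E2F1 at 44.5, 45.8 and 46.6 FPKM with tazemetostat, 12.4, 14.1 and 13.2 with RMC-6236, 7.71, 8.34 and 8.15 with the combination, and 38.8, 38.8 and 36.1 in control. KPC cells had E2f1 at 20.1, 20.2 and 18.97 FPKM with tazemetostat, 8.78, 9.83 and 10.2 with RMC-6236, 8.11, 8.61 and 8.34 with the combination, and 18.5, 19.5 and 19.4 in control. In each line the RMC-6236 and combination samples all lay below control, and the combination samples all lay below RMC-6236. Tazemetostat samples lay below control in PSN1, above it in SW1990 and overlapped it in KPC cells. The log2 change with RMC-6236 was -2.33 ± 0.05 in PSN1 (adjusted p = 6.5e-13), -1.45 ± 0.05 in SW1990 (adjusted p = 1.9e-11) and -0.92 ± 0.05 in KPC cells (adjusted p = 1.9e-09). E2F2, another activator, changed by -0.48 in PSN1, by -0.14 in SW1990, where it did not pass the test, and by -1.08 in KPC cells.

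Origin licensing genes fell together, with 10 of 10 called lower by RMC-6236 in each line and medians of -1.68 in PSN1, -1.14 in SW1990 and -1.61 in KPC cells. RMC-6236 counts by role in cells stand beside 34.6%, 41.7% and 35.8% of all genes lower in PSN1, SW1990 and KPC cells. CDC6 is the loader of the MCM helicase. PSN1 cells had CDC6 at 12.9, 13.8 and 14.3 FPKM with tazemetostat, 1.93, 1.69 and 1.62 with RMC-6236, 1.94, 1.75 and 1.67 with the combination, and 14.4, 16.3 and 14.3 in control. CDC6 in SW1990 cells stood at 42.8, 45.04 and 44.8 FPKM with tazemetostat, 16.04, 17.5 and 17.9 with RMC-6236, 13.2, 13.8 and 14.4 with the combination, and 36.6, 38.4 and 37.1 in control. Cdc6 in KPC cells stood at 13.2, 12.9 and 12.6 FPKM with tazemetostat, 3.399, 3.66 and 3.54 with RMC-6236, 2.899, 2.66 and 2.94 with the combination, and 15.5, 16.6 and 14.6 in control. RMC-6236 and combination samples lay below control everywhere, and they overlapped each other in PSN1 cells alone among the 3 lines. Its log2 change with RMC-6236 was -2.54 ± 0.06 in PSN1, -1.08 ± 0.05 in SW1990 and -1.87 ± 0.05 in KPC cells. Only Mcm3 had a larger fall there on the log2(FPKM + 1) scale, which understates falls of low genes.

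MCM2 is a subunit of the replicative helicase. MCM2 in PSN1 cells was at 24.9, 25.3 and 24.8 FPKM with tazemetostat, 8.06, 9.15 and 9.13 with RMC-6236, 6.38, 6.88 and 6.96 with the combination, and 28.9, 30.3 and 29.6 in control. MCM2 in SW1990 cells was at 31.9, 32.4 and 32.6 FPKM with tazemetostat, 13.9, 14.98 and 14.7 with RMC-6236, 9.38, 9.43 and 9.59 with the combination, and 36.2, 34.5 and 32.4 in control. Mcm2 in KPC cells was at 30.5, 29.8 and 30.95 FPKM with tazemetostat, 11.1, 10.49 and 10.9 with RMC-6236, 7.56, 7.78 and 7.495 with the combination, and 35.6, 36.1 and 36.5 in control. In all 3 lines the combination samples were the lowest and did not overlap RMC-6236, while tazemetostat overlapped control in SW1990 cells only. The log2 change with RMC-6236 was -1.65 ± 0.04, -1.19 ± 0.04 and -1.64 ± 0.03 in PSN1, SW1990 and KPC cells. Among the other subunits MCM3 changed by -1.46 in SW1990 and Mcm3 by -2.05 in KPC cells, and MCM5 changed by -1.51, -1.25 and -1.85 in the 3 lines.

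The 6 MCM subunits, which assemble in equal numbers, had unequal FPKM levels in each table. In PSN1 cells MCM5 was lowest and MCM7 highest in every arm, at 3.75 and 24.2 FPKM with RMC-6236 (a ratio of 6.47) and 12.5 and 82.1 FPKM in control (6.54). In KPC cells Mcm2 was lowest in every arm, at 10.9 FPKM with RMC-6236 and 36.1 in control, and the ratio of highest to lowest was 1.76 with RMC-6236 and 2.02 in control. In the order of FPKM levels over all members PCNA was highest in all 4 arms of PSN1 and KPC cells, and BRCA2 was lowest.

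Helicase activation genes were lower in 7 of 7 members with RMC-6236 in each line, with medians of -1.62, -0.71 and -1.29 in PSN1, SW1990 and KPC cells. CDC45 joins the MCM ring and GINS to make the working helicase. CDC45 in PSN1 cells stood at 10.6, 10.4 and 10.8 FPKM with tazemetostat, 2.32, 2.23 and 1.84 with RMC-6236, 1.35, 1.15 and 1.15 with the combination, and 13.1, 12.9 and 13.5 in control. CDC45 in SW1990 cells stood at 15.01, 15.3 and 15.04 FPKM with tazemetostat, 4.76, 5.18 and 5.19 with RMC-6236, 3.25, 3.54 and 3.58 with the combination, and 14.1, 13.7 and 13.6 in control. Cdc45 in KPC cells stood at 14.8, 15.4 and 16.4 FPKM with tazemetostat, 4.74, 3.73 and 3.85 with RMC-6236, 2.99, 3.49 and 3.05 with the combination, and 17.1, 16.7 and 16.7 in control. Both arms with RMC-6236 lay below control, and the combination lay below RMC-6236 alone in each line. Its change with RMC-6236 was -2.18 ± 0.06 in PSN1, -1.29 ± 0.05 in SW1990 and -1.81 ± 0.07 in KPC cells.

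GINS2 is a subunit of the GINS complex. GINS2 in PSN1 cells was at 6.1001, 5.87 and 6.53 FPKM with tazemetostat, 1.21, 1.03 and 0.851 with RMC-6236, 0.541, 0.764 and 0.919 with the combination, and 6.25, 6.91 and 5.92 in control. GINS2 in SW1990 cells was at 16.2, 15.4 and 16.1 FPKM with tazemetostat, 5.51, 5.52 and 6.08 with RMC-6236, 3.91, 3.76 and 3.46 with the combination, and 17.3, 16.7 and 16.1 in control. Gins2 in KPC cells was at 11.6, 10.6 and 9.53 FPKM with tazemetostat, 3.45, 4.66 and 3.44 with RMC-6236, 3.26, 4.02 and 2.303 with the combination, and 12.2, 10.8 and 9.57 in control. Tazemetostat samples overlapped control in all 3 lines, and combination and RMC-6236 samples overlapped in PSN1 and KPC cells. Its log2 change with RMC-6236 was -1.86 ± 0.09 in PSN1, -1.40 ± 0.05 in SW1990 and -1.29 ± 0.15 in KPC cells. MCM10, which helps to activate the helicase, changed by -2.44 in PSN1 and -1.47 in SW1990 cells. GINS3, another GINS subunit, changed by -0.80 in KPC cells, among the smallest falls there.

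Polymerase and primase genes were lower in 7 of 7 members in each line, with medians of -0.97, -0.87 and -1.27 in PSN1, SW1990 and KPC cells. POLA1, the catalytic subunit of polymerase alpha, starts new strands. POLA1 in PSN1 cells stood at 6.35, 6.31 and 7.09 FPKM with tazemetostat, 3.39, 3.26 and 3.29 with RMC-6236, 2.57, 2.22 and 2.56 with the combination, and 7.49, 7.499 and 7.302 in control. POLA1 in SW1990 cells stood at 10.003, 9.65 and 9.57 FPKM with tazemetostat, 3.43, 4.17 and 4.09 with RMC-6236, 3.61, 3.499 and 3.82 with the combination, and 7.4998, 8.95 and 8.31 in control. Pola1 in KPC cells stood at 3.73, 3.32 and 3.51 FPKM with tazemetostat, 0.899, 0.821 and 0.958 with RMC-6236, 0.515, 0.652 and 0.691 with the combination, and 3.62, 3.62 and 3.62 in control. RMC-6236 samples were below control in each line, and the combination overlapped RMC-6236 in SW1990 cells only. With RMC-6236 its log2 change was -0.97 ± 0.05 in PSN1, -0.92 ± 0.07 in SW1990 and -1.29 ± 0.06 in KPC cells. PRIM2, the large primase subunit, had a small fall in PSN1 cells, -0.59.

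Clamp and clamp loader genes were lower in 6 of 6 members in each line, with medians of -1.51, -1.10 and -1.19. PCNA is the sliding clamp that tethers polymerases to DNA. PCNA in PSN1 cells was at 219, 225 and 228 FPKM with tazemetostat, 91.7, 90.6 and 91.4 with RMC-6236, 78.6, 74.9 and 79.03 with the combination, and 272, 288 and 281 in control. PCNA in SW1990 cells was at 165, 164 and 162 FPKM with tazemetostat, 63.8, 76.7 and 80.9 with RMC-6236, 52.2, 51.6 and 51.2 with the combination, and 143, 159 and 157 in control. Pcna in KPC cells was at 109, 106 and 108 FPKM with tazemetostat, 34.6, 34.6 and 38.5 with RMC-6236, 29.2, 29.3 and 27.96 with the combination, and 119, 119 and 123 in control. The 4 arms did not overlap each other in any of the lines, and tazemetostat lay below control in PSN1 and KPC cells and above it in SW1990 cells, where it was not called (adjusted p = 0.26). On the log2 scale RMC-6236 moved it by -1.61 ± 0.03 in PSN1, -1.04 ± 0.07 in SW1990 and -1.72 ± 0.04 in KPC cells. PCNA has processed pseudogenes, and how shared reads were assigned is not stated.

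FEN1, the flap nuclease of Okazaki fragment processing, and LIG1, the ligase that joins the fragments, were both lower in each line. FEN1 in PSN1 cells stood at 50.1, 51.6 and 49.4 FPKM with tazemetostat, 12.3, 11.4 and 11.3 with RMC-6236, 12.005, 11.1 and 10.6 with the combination, and 48.8, 48.2 and 48.04 in control. FEN1 in SW1990 cells stood at 70.2, 70.9 and 68.99 FPKM with tazemetostat, 29.2, 29.6 and 30.96 with RMC-6236, 23.1, 23.02 and 22.3 with the combination, and 65.04, 63.3 and 61.7 in control. Fen1 in KPC cells stood at 37.2, 38.99 and 37.9 FPKM with tazemetostat, 11.2, 10.9 and 11.9 with RMC-6236, 8.89, 8.93 and 8.59 with the combination, and 37.4, 39.99 and 41.4 in control. The combination overlapped RMC-6236 in PSN1 cells and lay below it in the other two lines. Against control, RMC-6236 gave a log2 change of -1.96 ± 0.04 in PSN1, -1.06 ± 0.03 in SW1990 and -1.72 ± 0.04 in KPC cells, and that of LIG1 was -0.92, -0.34 and -1.68.

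CHAF1B belongs to CAF-1, which places histones on new DNA. CHAF1B in PSN1 cells was at 5.55, 5.92 and 5.81 FPKM with tazemetostat, 2.98, 3.02 and 2.704 with RMC-6236, 1.73, 2.31 and 1.61 with the combination, and 6.98, 6.43 and 6.81 in control. CHAF1B in SW1990 cells was at 2.14, 2.02 and 1.94 FPKM with tazemetostat, 0.953, 1.05 and 1.05 with RMC-6236, 0.617, 0.517 and 0.673 with the combination, and 1.92, 1.903 and 1.91 in control. Chaf1b in KPC cells was at 11.6, 11.7 and 11.9 FPKM with tazemetostat, 4.67, 4.48 and 5.49 with RMC-6236, 3.24, 2.62 and 3.38 with the combination, and 12.6, 13.4 and 13.8 in control. Combination samples were lowest in each line without overlap with RMC-6236. RMC-6236 changed it by -0.99 ± 0.07 in PSN1, -0.53 ± 0.05 in SW1990 and -1.29 ± 0.07 in KPC cells.

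Genes of nucleotide supply were lower in 4 of 4 members in each line, with medians of -1.24, -0.77 and -1.63. RRM2 is the S phase subunit of ribonucleotide reductase, which makes deoxynucleotides. RRM2 in PSN1 cells stood at 33.4, 33.4 and 34.9 FPKM with tazemetostat, 5.93, 6.26 and 5.55 with RMC-6236, 3.64, 3.94 and 3.82 with the combination, and 36.7, 38.7 and 37.7 in control. RRM2 in SW1990 cells stood at 33.7, 32.6 and 33.8 FPKM with tazemetostat, 11.1, 11.95 and 11.7 with RMC-6236, 8.14, 8.28 and 8.85 with the combination, and 27.8, 28.7 and 28.8 in control. Rrm2 in KPC cells stood at 95.6, 98.2 and 98.2 FPKM with tazemetostat, 25.1, 26.7 and 26.1 with RMC-6236, 22.3, 22.96 and 22.4 with the combination, and 94.04, 94.96 and 94.3 in control. Arms did not overlap in any line, and tazemetostat was the highest arm in SW1990 and KPC cells. Its log2 change with RMC-6236 was -2.49 ± 0.04 in PSN1 (adjusted p = 2.3e-14), -1.23 ± 0.04 in SW1990 and -1.82 ± 0.03 in KPC cells.

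TYMS, thymidylate synthase, makes thymidylate from deoxyuridylate. TYMS in PSN1 cells was at 37.8, 37.5 and 38.3 FPKM with tazemetostat, 14.01, 14.3 and 13.8 with RMC-6236, 8.16, 7.69 and 7.67 with the combination, and 41.6, 41.9 and 44.4 in control. TYMS in SW1990 cells was at 35.7, 35.4 and 34.7 FPKM with tazemetostat, 17.3, 20.8 and 20.6 with RMC-6236, 15.6, 15.4 and 16.5 with the combination, and 34.004, 33.2 and 34.9 in control. Tyms in KPC cells was at 10.2, 9.99 and 10.2 FPKM with tazemetostat, 3.31, 2.53 and 3.19 with RMC-6236, 2.26, 2.198 and 2.38 with the combination, and 10.8, 10.8 and 10.9 in control. The combination lay below RMC-6236 in each line. With RMC-6236 its log2 change was -1.53 ± 0.03 in PSN1, -0.77 ± 0.06 in SW1990 and -1.57 ± 0.06 in KPC cells. Human TYMS overlaps ENOSF1 on the other strand, and whether counting was strand-aware is not stated, so its human values are uncertain.

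TK1 is the thymidine kinase of the salvage pathway. TK1 in PSN1 cells stood at 26.9, 27.2 and 26.7 FPKM with tazemetostat, 20.7, 21.5 and 21.9 with RMC-6236, 12.3, 10.4 and 12.5 with the combination, and 27.3, 30.6 and 28.6 in control. TK1 in SW1990 cells stood at 140.5, 142 and 136 FPKM with tazemetostat, 119, 118 and 118 with RMC-6236, 94.7, 94.5 and 95.5 with the combination, and 164, 158 and 149 in control. Tk1 in KPC cells stood at 35.9, 34.99 and 36.3 FPKM with tazemetostat, 10.6, 11.7 and 10.9 with RMC-6236, 9.42, 8.67 and 8.78 with the combination, and 36.8, 39.6 and 37.1 in control. RMC-6236 lay below control in each, with a log2 change of -0.42 ± 0.06 in PSN1 and -0.40 ± 0.03 in SW1990 cells against -1.69 ± 0.04 in KPC cells, from separate fits. The fall in PSN1 cells was the smallest of the 46 members.

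Checkpoint and repair genes were lower in 6 of 6 members in each line, with medians of -1.45, -0.73 and -1.19. CLSPN (claspin) carries the signal of stalled forks to the kinase CHK1. CLSPN in PSN1 cells was at 5.66, 5.46 and 5.69 FPKM with tazemetostat, 1.03, 0.897 and 0.909 with RMC-6236, 0.715, 0.747 and 0.738 with the combination, and 6.72, 6.45 and 6.36 in control. CLSPN in SW1990 cells was at 4.39, 4.28 and 4.06 FPKM with tazemetostat, 0.9096, 1.23 and 1.18 with RMC-6236, 0.599, 0.604 and 0.753 with the combination, and 3.11, 3.63 and 3.76 in control. Clspn in KPC cells was at 4.27, 4.63 and 4.38 FPKM with tazemetostat, 1.24, 1.36 and 1.27 with RMC-6236, 1.04, 1.16 and 0.91997 with the combination, and 4.48, 4.31 and 4.74 in control. The combination lay below RMC-6236 in all 3 lines. On the log2 scale RMC-6236 moved it by -1.95 ± 0.04 in PSN1, -1.09 ± 0.07 in SW1990 and -1.27 ± 0.06 in KPC cells.

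EXO1 is an exonuclease of mismatch and break repair. EXO1 in PSN1 cells stood at 12.1, 12.2 and 12.3 FPKM with tazemetostat, 1.95, 2.17 and 2.37 with RMC-6236, 2.17, 1.93 and 1.77 with the combination, and 13.3, 13.4 and 14.6 in control. EXO1 in SW1990 cells stood at 11.6, 10.8 and 11.4 FPKM with tazemetostat, 3.38, 4.08 and 3.55 with RMC-6236, 2.77, 3.04 and 2.87 with the combination, and 8.97, 10.2 and 10.3 in control. Exo1 in KPC cells stood at 3.93, 3.74 and 3.71 FPKM with tazemetostat, 1.07, 1.08 and 0.967 with RMC-6236, 0.711, 0.593 and 0.6304 with the combination, and 4.59, 4.69 and 4.61 in control. The combination overlapped RMC-6236 in PSN1 cells and lay below it in the other two lines. Against control, RMC-6236 gave a log2 change of -2.22 ± 0.06 in PSN1, -1.21 ± 0.06 in SW1990 and -1.47 ± 0.05 in KPC cells. On the log2(FPKM + 1) scale CDC25A, the phosphatase that activates CDK2, had the largest fall of all members in both human lines. It changed by -2.69 ± 0.06 in PSN1 and -1.47 ± 0.05 in SW1990, and had the smallest fall in KPC cells, -0.53 ± 0.04. As a ratio MCM10 fell more in PSN1 cells, from 8.91 FPKM in control to 0.826 with RMC-6236, beside 16.8 and 1.77 for CDC25A. The repair genes BRCA2 and FANCD2 were among the smallest falls in SW1990 cells, at -0.34 and -0.26.

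As a description over 46 genes, which share libraries and are not replicates, Spearman's rho of the RMC-6236 change was 0.81 between PSN1 and SW1990 cells, 0.29 between PSN1 and KPC cells and 0.22 between SW1990 and KPC cells.

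**Figure D3:**
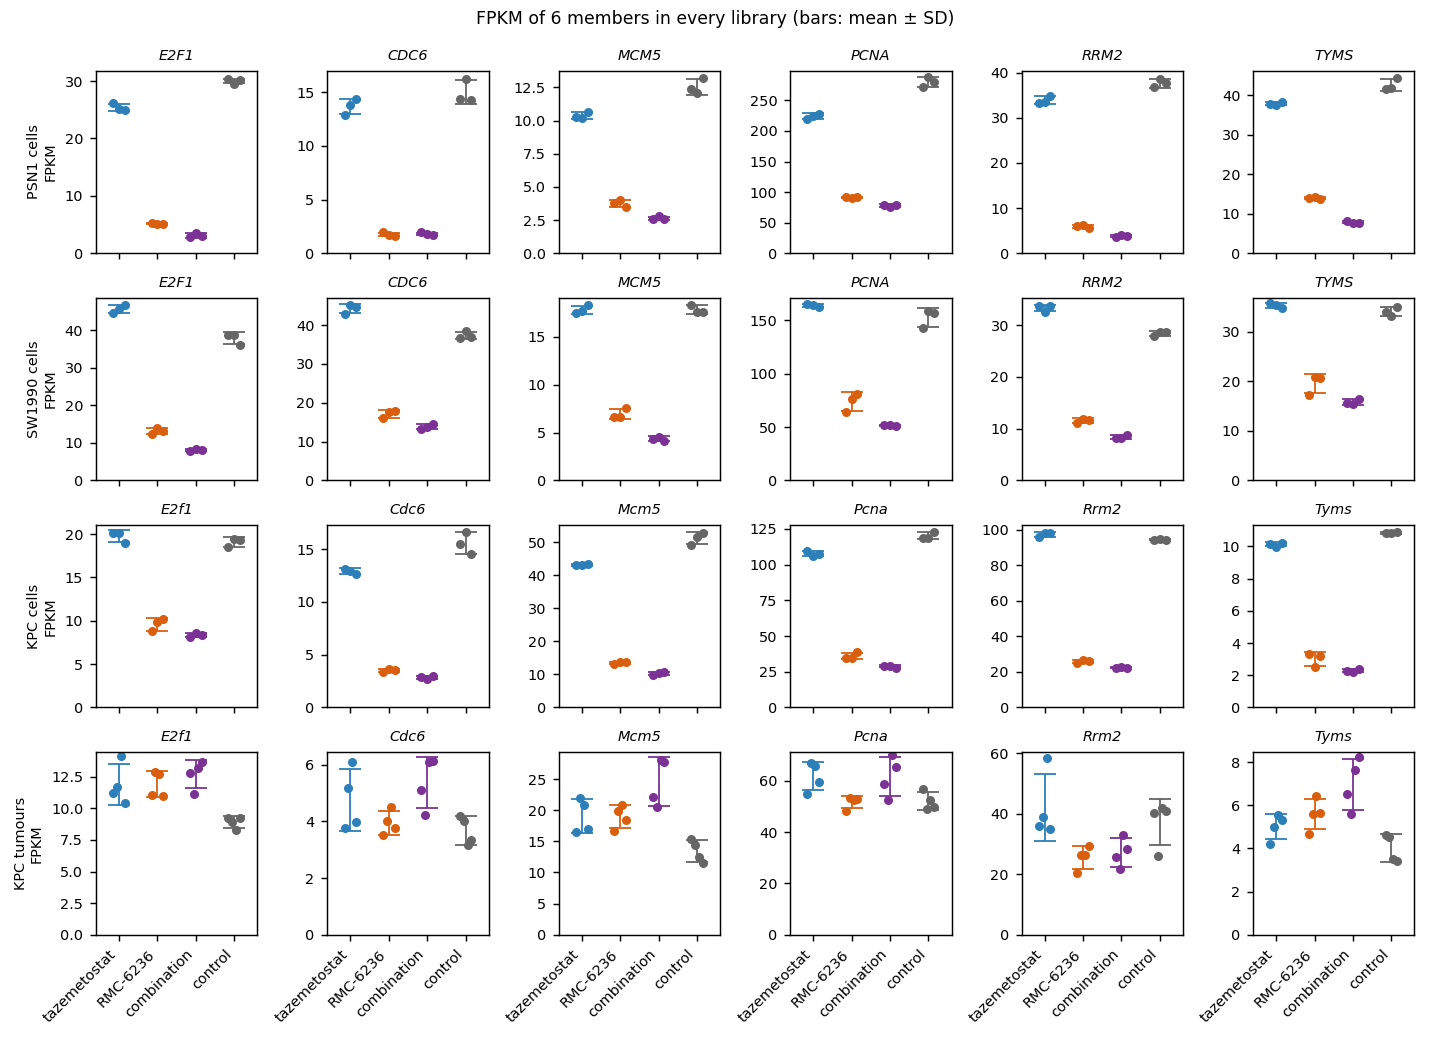
FPKM of 6 members in every library of the 4 tables, with the mean and SD of each arm (n = 3 in cells, 4 in tumours) and axes that start at 0. RMC-6236 and the combination are far below control in the 3 cell lines, and in tumours E2f1, Mcm5 and Tyms are above control in both arms while Rrm2 is the member with a called fall.

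Promoters are shown for Cdc6, Mcm3 and Rrm2, among the 4 members with the largest RMC-6236 falls in KPC cells by log2(FPKM + 1). That order understates falls of low genes. Pole, at 1.34 FPKM with RMC-6236 and 6.04 in control, fell more than each of them as a ratio. The windows run from 250 bases before to 50 bases after the RefSeq start on GRCm38.p6. That build need not be the one the authors used. Capitals mark matches to any of the letters TTTGGCGC, TTTCCCGC, TTTCGCGC and TTTGCCGC on either strand, which are E2F-type motifs. Each window is written 5′ to 3′ on the gene's own strand, and its last 50 bases lie in the transcribed first exon.
Cdc6, chr11:98907901-98908200, plus strand: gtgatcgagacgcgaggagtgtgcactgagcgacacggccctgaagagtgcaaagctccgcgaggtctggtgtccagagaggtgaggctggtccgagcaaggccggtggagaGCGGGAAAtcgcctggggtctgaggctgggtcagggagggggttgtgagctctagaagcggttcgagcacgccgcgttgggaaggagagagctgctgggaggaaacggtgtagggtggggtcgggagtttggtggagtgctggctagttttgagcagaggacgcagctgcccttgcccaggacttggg
Mcm3, chr1:20820263-20820562, minus strand: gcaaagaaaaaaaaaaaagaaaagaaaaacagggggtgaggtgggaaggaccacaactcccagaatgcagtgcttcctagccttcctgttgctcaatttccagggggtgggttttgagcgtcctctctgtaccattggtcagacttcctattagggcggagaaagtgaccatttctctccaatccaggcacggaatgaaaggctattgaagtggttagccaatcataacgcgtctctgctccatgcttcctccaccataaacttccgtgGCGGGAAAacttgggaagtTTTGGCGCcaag
Rrm2, chr12:24708004-24708303, plus strand: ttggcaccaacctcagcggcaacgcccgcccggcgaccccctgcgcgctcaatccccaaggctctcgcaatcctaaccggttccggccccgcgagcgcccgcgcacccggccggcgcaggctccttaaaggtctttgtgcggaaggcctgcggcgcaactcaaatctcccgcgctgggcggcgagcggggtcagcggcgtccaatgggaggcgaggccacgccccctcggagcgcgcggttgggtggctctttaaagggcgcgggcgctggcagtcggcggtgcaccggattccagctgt

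The Cdc6 window held 1 match, starting 138 bases before the start site. The Mcm3 window held 2 matches, at 19 and 38 bases after it. No match to these letters was found in the Rrm2 window. RefSeq windows were given for 36 of the 46 members, and 17 of them (47.2%) held an E2F-type match, beside 704 of 27025 genes (2.60%) over all windows of that length. CCAAT, a motif of many cell cycle promoters, was in 58.3% of the members' windows and 41.1% of all, and TTTGAA, the letters of the CHR element, in 16.7% and 20.2%. The median RMC-6236 change in KPC cells was -1.29 for the 17 members with an E2F-type match and -1.31 for the 19 without.

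Adding tazemetostat to RMC-6236 lowered many members further in cells. Combination against RMC-6236, 36 of 46 members were lower in PSN1 cells (30.1% of all genes were), 34 of 46 in SW1990 cells (18.3%) and 36 of 46 in KPC cells (28.5%). In all 3 lines 24 members were lower, and the share of all genes for that overlap was not computed. Median log2 changes were -0.29, -0.31 and -0.25 in that order of lines, beside -0.03, 0.04 and -0.04 for all genes. Without RMC-6236 replicate 1 the SW1990 count was 38. The largest falls were TK1 at -0.81 ± 0.06 and TYMS at -0.77 ± 0.03 in PSN1, MCM4 at -0.77 ± 0.04 and MCM6 at -0.68 ± 0.07, 2 helicase subunits, in SW1990, and Cdt1, the licensing factor, at -0.54 ± 0.07 in KPC cells.

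A few members went the other way. GINS3 and CDC7, the kinase that fires licensed origins, were higher with the combination than with RMC-6236 in PSN1 cells, by 0.22 and 0.28, against 24.1% of all genes higher. E2f2 was higher in KPC cells, with 3.80 FPKM in the combination and 2.13 with RMC-6236 (0.62 ± 0.05, adjusted p = 3.2e-07), where 20.3% of all genes were higher. E2F2 was also higher in SW1990 cells (0.19 ± 0.06, adjusted p = 0.024; 29.8% of all genes higher), a call lost without RMC-6236 replicate 1 (adjusted p = 0.056) or combination replicate 2 (adjusted p = 0.12).

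Tazemetostat alone gave fewer calls, mostly lower in PSN1 and KPC cells and mostly higher in SW1990 cells. In PSN1 cells 30 of 46 were lower, against 22.5% of all genes, with a median of -0.19 beside -0.00 for all genes, led by CHAF1A, the large CAF-1 subunit, at -0.38 ± 0.04, BRCA1 at -0.33 ± 0.05 and PCNA at -0.32 ± 0.03. CDC7 was the only member higher there (0.27 ± 0.06; 23.6% of all genes higher), and the count was 2 without control replicate 2. In KPC cells 22 of 46 were lower, against 25.5% of all genes, with a median of -0.14, and 10 of 10 licensing genes were among them, led by Orc1 of the origin recognition complex at -0.42 ± 0.09 and Cdt1 at -0.39 ± 0.07. E2f2 was the only member higher in KPC cells (0.32 ± 0.05; 18.6% of all genes higher).

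In SW1990 cells 18 of 46 were higher, against 23.1% of all genes, with a median of 0.11 beside 0.04 for all genes, and 2 were lower, against 14.4%. E2F2 rose most, by 0.56 ± 0.06 (adjusted p = 1.6e-05), then MCM6 by 0.41 ± 0.07 and CHAF1A by 0.39 ± 0.05. The 2 lower members were TK1 at -0.17 ± 0.03 and RFC2, a clamp loader subunit, at -0.14 ± 0.05. The RFC2 call (adjusted p = 0.038) was lost in 5 of 12 fits that left out a library, all of them without a tazemetostat sample or without control replicates 1 or 2 (adjusted p of 0.079 to 0.15), and in 2 of 6 other settings. The count of 18 fell to 10 without tazemetostat replicate 1, to 11 without tazemetostat replicate 2 and to 10 without control replicate 1, and it was 21 without RMC-6236 replicate 1. Of all called genes in that contrast 61.7% were higher as deposited and 50% after rescaling libraries by the median ratio. No member was lower in all 3 lines or higher in all 3.

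The difference between the tazemetostat change with and without RMC-6236, the interaction of both drugs, was tested directly. In SW1990 cells 32 of 46 members had a negative interaction that passed the test, against 6.19% of all genes, and 0 had a positive one that did, against 9.03% (15.2% in either direction). All 46 values were negative, with a median of -0.38 beside 0.01 for all genes. The count was 43 without RMC-6236 replicate 1. MCM6 led at -1.09 ± 0.10 (adjusted p = 9.8e-06), with tazemetostat raising it by 0.41 alone and the combination standing at -0.68 against RMC-6236. E2F1 followed at -0.91 ± 0.07 (adjusted p = 2.1e-06) and MCM4 at -0.77 ± 0.06. Licensing genes made up 8 of the 32.

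Fewer members had an interaction in the other lines. In PSN1 cells 6 of 46 were negative, a share near the 13.8% of all genes, and 1 was positive, against 9.8%. With a pseudocount of 0.1 the PSN1 count in either direction was 12, against 7 with the pseudocount of 1. The negative ones were TK1 at -0.72 ± 0.08, TYMS at -0.60 ± 0.04 (adjusted p = 9.4e-07), RRM2 at -0.38 ± 0.06, E2F1, CDT1 and FANCD2, and the positive one was GINS3 at 0.27 ± 0.06. The FANCD2 call was lost in 9 of 12 left-out fits (adjusted p up to 0.10). Of the called genes in that contrast 41.5% were positive as deposited and 55.2% after rescaling. In KPC cells 13 were negative, against 13.7%, led by Chaf1b at -0.36 ± 0.10, Rrm1 at -0.29 ± 0.05 and Gins3 at -0.28 ± 0.09, and E2f2 was positive at 0.30 ± 0.06, against 12.1%. Without control replicate 1 the KPC count of 14 (25.8% of all genes in either direction) fell to 9, and the Chaf1b call was lost (adjusted p = 0.056). The Gins3 call was lost in 8 of 12 left-out fits (adjusted p of 0.060 to 0.094). E2F1 and RRM2 were the members with a negative interaction in all 3 lines, although the KPC call of E2f1 was lost in 7 of 12 fits that left out a library (adjusted p up to 0.069). The share of all genes with a negative interaction in all 3 lines was not computed.

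**Figure D4:**
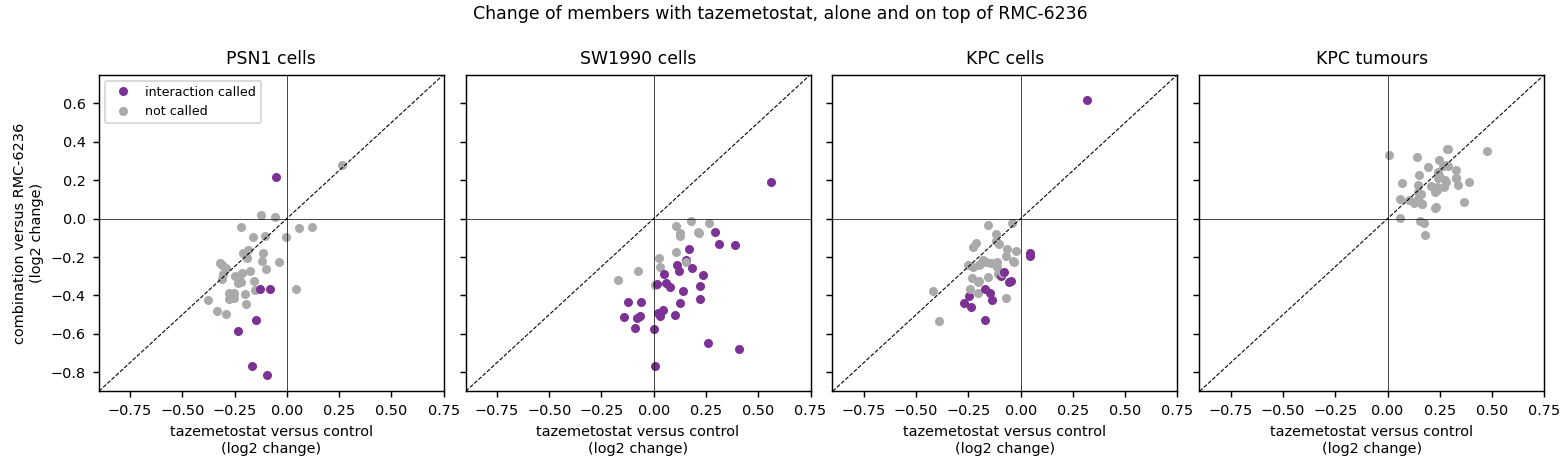
Log2 change with tazemetostat against control (x axis) and with the combination against RMC-6236 (y axis) for each member in the 4 tables, with the line of equal change dashed. Purple points have a called interaction. In SW1990 cells every point lies below the line, and in tumours no interaction was called.

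In tumours the share of members called higher was near that of all genes with RMC-6236 and above it with the combination, and at most 1 member was called lower in either arm. With RMC-6236, 9 of 45 tested members were higher than control, against 20.3% of the 13545 genes tested, and 1 was lower, against 19.2%, with a median log2 change of 0.11 beside 0.01 for all genes. With the combination 26 of 45 were higher, against 26.7% of all genes, and 0 were lower, against 25.7%, with a median of 0.28 beside -0.00 for all genes. At an unadjusted p below 0.05 limma gave 2 lower and 30 higher members with the combination, and over all genes 3852 lower and 3977 higher. The 2 lower members were Rrm2 and Cdt1. Brca2 was below the filter on low values. In bulk tumours, fewer cells of a type and less RNA per cell cannot be told apart.

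Combination tumours set against control rested partly on single libraries. Without combination replicate 3 the count of 26 fell to 17 and Rrm2 and Cdt1 were called lower, without combination replicate 2 it was 32, and without the acinar-rich replicates 2 and 4 together it was 29. The RMC-6236 count was 11 without those 2 libraries. Of the 26 calls with the combination, 17 held in each of the 23 alternative fits, and the share of calls over all genes that held was not computed. Rrm2 was also called lower without tazemetostat replicate 3 or control replicate 2, and Cdt1 without combination replicate 4.

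Several lists of cell type markers differed between the arms of the tumours. Their counts stand beside 20.3% of all genes higher and 19.2% lower with RMC-6236, and 26.7% and 25.7% with the combination. Epithelial marker genes, of which 4 of 5 were lower than control with RMC-6236 and 4 of 5 with the combination, summed to 2779 to 4945 FPKM with tazemetostat, 1410.1 to 1947 with RMC-6236, 817 to 1349 with the combination and 3063 to 3784 in control. Fibroblast markers, with 6 of 8 higher under RMC-6236 and 7 of 8 under the combination, summed to 584 to 1311, 2951 to 3934, 3235 to 3784 and 846 to 1160.3 FPKM in the same order of arms. Macrophage markers, with 6 of 8 higher in both arms, summed to 185 to 327, 386 to 618, 475 to 745 and 250.2 to 309 FPKM. Endothelial markers were higher in 6 of 6 genes with the combination and in 1 of 6 with RMC-6236, and neutrophil markers in 6 of 6 and 0 of 6. The RMC-6236 counts of endothelial and neutrophil markers are below the 20.3% of all genes. Acinar markers summed to 6.3995 to 227 FPKM with tazemetostat, 5.002 to 65.9 with RMC-6236, 61.7 to 2187 with the combination and 10.8 to 35.2 in control. T cell markers summed to at most 6.08 FPKM and B cell markers to at most 7.46 FPKM in any tumour. Their part in the changes of the replication genes was not tested.

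In tumours E2f1 stood at 11.2, 11.7, 14.2 and 10.4 FPKM with tazemetostat, 11.1, 12.9, 12.8 and 10.97 with RMC-6236, 12.8, 11.1, 13.2 and 13.7 with the combination, and 9.25, 8.92, 8.27 and 9.26 in control. All treated samples lay above all control samples, and the treated arms overlapped each other. The change was 0.38 ± 0.09 with RMC-6236 (adjusted p = 0.0032) and 0.46 ± 0.09 with the combination (adjusted p = 4.2e-04).

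Counts by role in tumours, given next, stand beside 20.3% of all genes higher with RMC-6236 and 26.7% with the combination, and nothing is read from the RMC-6236 counts by role. Licensing genes were higher in 1 of 10 members with RMC-6236 and 5 of 10 with the combination. Cdc6 in tumours stood at 3.76, 5.18, 6.08 and 3.98 FPKM with tazemetostat, 3.52, 4.02, 4.51 and 3.76 with RMC-6236, 5.12, 4.23, 6.09 and 6.12 with the combination, and 4.198, 4.01, 3.17 and 3.35 in control. Combination samples lay above control, and the other two arms overlapped it. The combination change was 0.44 ± 0.13 (adjusted p = 0.010). Mcm2 in tumours was at 12.2, 14.99, 14.7 and 12.4 FPKM with tazemetostat, 9.41, 11.3, 11.9 and 10.8 with RMC-6236, 10.8, 10.4, 14.8 and 13.99 with the combination, and 11.7, 11.6, 9.33 and 9.55 in control. Tazemetostat samples lay above control, but no arm was called, with adjusted p = 0.62 for tazemetostat and 0.13 for the combination. Mcm5, the licensing member that rose most, averaged 18.9 ± 1.86 FPKM with RMC-6236, 24.6 ± 3.87 with the combination and 13.4 ± 1.75 in control (SD, n = 4). Its change was 0.47 ± 0.12 with RMC-6236 (adjusted p = 0.0075) and 0.82 ± 0.12 with the combination (adjusted p = 5.9e-05), without overlap with control in either arm.

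Helicase activation genes were higher in 2 of 7 members with RMC-6236 and 6 of 7 with the combination. Cdc45 in tumours stood at 8.74, 8.99, 10.96 and 7.98 FPKM with tazemetostat, 8.07, 10.4, 11.3 and 9.36 with RMC-6236, 12.04, 9.92, 12.05 and 13.3 with the combination, and 8.13, 7.03, 6.45 and 6.72 in control. The combination lay above control without overlap, and RMC-6236 overlapped it by its lowest sample. The change was 0.41 ± 0.11 with RMC-6236 and 0.66 ± 0.11 with the combination (adjusted p = 1.5e-04). Gins2 in tumours was at 6.64, 5.88, 6.42 and 4.22 FPKM with tazemetostat, 5.58, 6.06, 5.25 and 4.601 with RMC-6236, 6.55, 5.79, 7.32 and 8.51 with the combination, and 6.504, 5.16, 6.16 and 5.01 in control. Every arm overlapped control, and no change passed the test. Gins3 rose by 0.44 ± 0.09 with RMC-6236 (adjusted p = 0.0013) and by 0.65 ± 0.09 with the combination (adjusted p = 2.4e-05).

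Polymerase and primase genes were higher in 2 of 7 members with RMC-6236 and 5 of 7 with the combination. Pola1 in tumours stood at 1.91, 1.81, 2.17 and 1.86 FPKM with tazemetostat, 2.11, 2.17, 2.22 and 2.13 with RMC-6236, 2.502, 2.44, 3.102 and 3.32 with the combination, and 1.62, 1.601, 1.21 and 1.21 in control. The combination was highest, RMC-6236 lay below it and above control without overlap, and tazemetostat overlapped RMC-6236. The change was 0.39 ± 0.09 with RMC-6236 (adjusted p = 0.0023) and 0.67 ± 0.09 with the combination (adjusted p = 1.5e-05). The second polymerase call with RMC-6236, Pole2 of polymerase epsilon (0.26, adjusted p = 0.047), was lost in 11 of 16 fits that left out a library, with adjusted p up to 0.14.

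Clamp and clamp loader genes were higher in 2 of 6 members with RMC-6236 and 4 of 6 with the combination. Pcna in tumours was at 54.97, 66.9, 65.9 and 59.7 FPKM with tazemetostat, 48.2, 53.3, 52.4 and 53.1 with RMC-6236, 58.9, 52.6, 70.1 and 65.4 with the combination, and 56.97, 49.1, 52.7 and 49.8 in control. Each arm overlapped control, and the combination change of 0.24 ± 0.08 passed the test (adjusted p = 0.030) but was lost in 5 of 16 left-out fits. Fen1 in tumours stood at 15.9, 19.8, 17.8 and 17.4 FPKM with tazemetostat, 12.98, 12.7, 13.4 and 12.3 with RMC-6236, 15.04, 11.2, 17.2 and 17.002 with the combination, and 15.8, 14.3, 14.7 and 12.9 in control. Tazemetostat lay just above control, the other arms overlapped it, and neither Okazaki fragment gene was called. Chaf1b in tumours was at 6.295, 6.07, 5.99 and 5.38 FPKM with tazemetostat, 5.43, 5.12, 5.802 and 6.15 with RMC-6236, 6.16, 4.82, 7.71 and 6.496 with the combination, and 5.48, 5.11, 5.16 and 5.08 in control. All arms overlapped control, and neither chromatin assembly gene was called.

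Rrm2 was the only member called lower in tumours, with RMC-6236, where 13 of 45 members had a negative change. Cdt1 was not called with RMC-6236, although its samples, at 9.45 to 10.2 FPKM, all lay below control, at 10.6 to 11.7 FPKM. Rrm2 in tumours stood at 35.97, 38.95, 58.4 and 34.9 FPKM with tazemetostat, 20.3, 26.4, 26.3 and 29.2 with RMC-6236, 25.6, 21.5, 33.1 and 28.2 with the combination, and 40.3, 26.003, 41.7 and 40.8 in control. RMC-6236 samples were low but overlapped control through control replicate 2, which lay far below the other control samples. Its change was -0.51 ± 0.18 with RMC-6236 (adjusted p = 0.039) and -0.43 ± 0.18 with the combination (adjusted p = 0.061). The RMC-6236 call was lost in 6 of 16 fits, without RMC-6236 replicates 1, 2 or 3 or control replicates 1, 3 or 4, with adjusted p of 0.058 to 0.12.

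Tyms in tumours was at 4.21, 5.004, 5.53 and 5.32 FPKM with tazemetostat, 4.68, 5.61, 6.41 and 5.62 with RMC-6236, 6.501, 5.57, 7.63 and 8.22 with the combination, and 4.61, 4.54, 3.51 and 3.43 in control. RMC-6236 and combination samples lay above control, while tazemetostat overlapped it. The change was 0.39 ± 0.12 with RMC-6236 (adjusted p = 0.017), a call lost without RMC-6236 replicate 3 or control replicates 3 or 4 with adjusted p of 0.052 to 0.055, and 0.67 ± 0.12 with the combination (adjusted p = 2.8e-04). Tk1 in tumours stood at 15.8, 17.9, 16.5 and 15.6 FPKM with tazemetostat, 14.7, 15.1, 15.9 and 15.9 with RMC-6236, 17.1, 11.96, 21.6 and 19.6 with the combination, and 15.4, 13.1, 13.6 and 13.1 in control. Tazemetostat lay just above control, both other arms overlapped it, and no change was called. Rrm1, the large reductase subunit, rose by 0.52 with the combination against control (adjusted p = 1.5e-04).

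Clspn in tumours was at 1.88, 2.27, 2.496 and 2.05 FPKM with tazemetostat, 1.61, 2.37, 2.13 and 2.605 with RMC-6236, 2.56, 1.96, 3.57 and 3.31 with the combination, and 2.15, 1.65, 1.67 and 1.64 in control. The arms overlapped control, and the combination change of 0.46 ± 0.13 passed the test (adjusted p = 0.0090). Exo1 in tumours stood at 1.703, 2.13, 2.17 and 1.84 FPKM with tazemetostat, 1.42, 1.47, 1.504 and 1.36 with RMC-6236, 1.87, 1.59, 2.18 and 2.23 with the combination, and 1.698, 1.69, 1.29 and 1.0997 in control. The combination lay above RMC-6236 and overlapped control, where its change was 0.28 ± 0.10 (adjusted p = 0.022), a call lost in 4 of 16 left-out fits.

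Tazemetostat alone gave no called gene in tumours, 0 of 45 members and 0% of 13545 genes. At an unadjusted p below 0.05 limma gave 24 members higher and 0 lower, and over all genes 678 higher and 345 lower. All 45 tested members had a positive change, with a median of 0.23 beside 0.01 for all genes, up to 0.47 for Mcm5. Combination against RMC-6236, 1 member was higher, Rrm1 at 0.32 ± 0.09 (adjusted p = 0.034), against 5.16% of all genes, and 0 were lower, against 2.97%. Unadjusted, 13 members were higher and 0 lower, and over all 13545 genes 1573 were higher and 1437 lower. The Rrm1 call was lost without RMC-6236 replicates 1 or 2 and without combination replicates 3 or 4 (adjusted p of 0.052 to 0.10), while 7 members were called without combination replicate 2 and 2 without combination replicate 1. The interaction was called for 0 of 45 members, against 1.86% of all genes (0.369% negative and 1.49% positive). Unadjusted, 1 was negative, E2f1 at -0.28, and 0 were positive, and over all genes 925 were negative and 1025 positive.

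The 2 mouse tables set KPC cells beside KPC tumours, in separate fits. With RMC-6236, Mcm5 changed by -1.85 in cells and 0.47 in tumours, Tyms by -1.57 and 0.39, and Rrm2 by -1.82 and -0.51. In 10 of the 45 members tested in both tables every RMC-6236 sample was below control in cells and above control in tumours, against 3.31% of the 12068 genes tested in both. The same held for the combination in 16 of 45, against 5.58% of all genes, and in Brca2, which was not tested in tumours. All 46 members lay below control without overlap in KPC cells in both comparisons, so these counts depend on the tumour samples alone. The shares of all genes also count genes that were not lower in cells, so nothing is read from the gap. The difference between cells and tumours was not tested, since the tables were normalised separately. Spearman's rho over 45 members between the changes in cells and tumours was 0.16 for RMC-6236 and 0.00 for the combination, as a description.

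**Figure D5:**
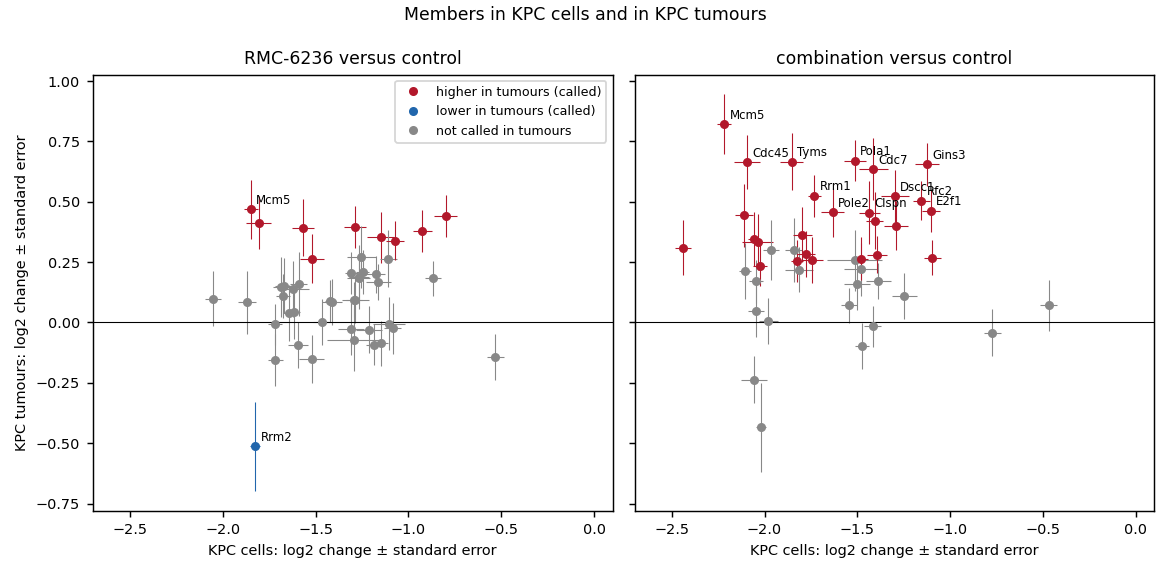
Log2 change with standard error in KPC cells (x axis) and KPC tumours (y axis) for each member, for RMC-6236 and the combination against control. All 45 points lie left of 0, and most lie above 0 on the tumour axis, with Mcm5 highest and Rrm2 lowest.

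Other genes of the pathway, counted from lists outside the 46, were mostly lower in cells. Of 30 further replication genes 28, 28 and 29 were lower with RMC-6236 in PSN1, SW1990 and KPC cells (34.6%, 41.7% and 35.8% of all genes were), with medians of -0.78, -0.55 and -1.05, among them the MCM-related helicase MCM8 at -1.40 in PSN1, the fork protection factor TIPIN at -1.12 in SW1990 and the topoisomerase Top2a at -2.08 in KPC cells. Of 20 other E2F targets and nucleotide genes 19, 17 and 18 were lower, including UHRF1, which guides DNA methylation to new DNA, at -2.02 in PSN1, and CCNE1, cyclin E1, at -1.71 in SW1990 cells. Of 12 E2F and RB regulators 9, 10 and 9 were lower, with CCND1, cyclin D1, at -1.70 in PSN1 and -2.12 in KPC cells.

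Counts of mitosis genes differed between the 3 lines, a difference that was not tested. With RMC-6236, 25 of 25 were lower in KPC cells (median -1.57), 21 of 25 in PSN1 cells (median -0.42) and 6 of 25 in SW1990 cells, where 7 were higher (median -0.00). Both SW1990 counts are below the shares of all genes there, 41.7% lower and 30.7% higher. The kinesin KIF20A was at 0.56 in SW1990 cells, and the kinase AURKB was at -1.34 in PSN1 and -2.04 in KPC cells. The replication genes themselves were lower in 45 or 46 of 46 members in each of these lines. In tumours 3 of 25 mitosis genes were higher with RMC-6236 and 16 of 25 with the combination, 0 were lower in either, and the medians were 0.20 and 0.40. The RMC-6236 count is below the 20.3% of all genes that were higher, and the combination count is above the 26.7%.

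In tumours 3 of 12 E2F and RB regulators were lower and 0 higher with RMC-6236, against 19.2% and 20.3% of all genes. Other replication genes were higher in 5 of 30 with RMC-6236, below the 20.3% of all genes, and in 12 of 30 with the combination, above the 26.7%, with 1 lower in each, and the helicase Recql4 rose by 0.61 and 0.79. Other E2F targets and nucleotide genes were higher in 4 of 20, near the share of all genes, and in 14 of 20, above it, with 1 lower in each, and Samhd1, which breaks down deoxynucleotides, rose by 0.57 and 0.76. Ccnd1 was lower in both arms, at -1.35 ± 0.26 with RMC-6236 (adjusted p = 0.0011) and -1.45 ± 0.26 with the combination (adjusted p = 3.2e-04).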

How the data were processed

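RNA was measured by RNA-seq in 52 of 67 labelled samples, 3 per arm in PSN1, SW1990 and KPC cells and 4 per arm in KPC orthotopic tumours; the 15 subcutaneous tumours are not analysed here. Per the labels' protocols, RNA was isolated with RNAiso Plus and libraries made with a VAHTS stranded mRNA kit. Tools in the submitters' processing notes are StringTie 1.3.1c, STAR 2.5.3a and FastQC 0.11.2, with hg38 listed for every sample; the mouse build and the strand used in counting are not given in the sources used here. The FPKM values were deposited by the authors per gene in 4 tables and used as such; low values showed no steps of whole reads, so depth is unknown. No columns were identical (0) and 0 were left unmapped.

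Values were taken to log2(FPKM + 1) and genes kept with at least 1 FPKM in 3 libraries (cells) or 4 (tumours). limma 3.58.1 in R 4.3.3 (with statmod 1.5.0) modelled the arm means of every table separately (robust eBayes with a trend), and 5 two-sided contrasts were drawn, with Benjamini-Hochberg adjustment over all genes tested and a threshold of 0.05. Tables and figures were made with pandas 2.3.3 and matplotlib 3.10.9 in Python 3.11.15. The fit was tested on simulated data. The members and gene lists were chosen with earlier results of these data known. All members could be named; every sample's value is given for 14 members of a set list, and otherwise the largest and smallest changes, those against the majority and the called interactions were named (at most 3 per list outside the 46, by size among called genes). Promoter windows are from RefSeq. Alternatives were a pseudocount of 0.1, no filter, rescaled libraries, plain eBayes, a replicate block, fits on the compared arms alone, leaving out each library, and, added after seeing the data, tumours without the 2 acinar-rich combination libraries.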

Additional observations from a re-analysis of the deposited data

Results flagged for a closer look

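In 60 groups of 4 tumour samples looked at, 3 held a sample far from the others, which is what chance gives about 1 in 20 groups. Pcna in the RMC-6236 arm had replicate 1 at 48.2 FPKM, below the other 3 samples at 52.4 to 53.3. Rrm2 in the control arm had replicate 2 at 26.0 FPKM, below the other 3 at 40.3 to 41.7. Clspn in the control arm had replicate 1 at 2.15 FPKM, above the other 3 at 1.64 to 1.67.

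The direction in KPC cells and KPC tumours was opposite, with full separation of samples in both, for 10 members under RMC-6236 and for 17 members under the combination, each lower in cells and higher in tumours. Over the genes tested in both tables this was 10 of 45 members with RMC-6236, against 3.31% of all genes, and 16 of 45 with the combination, against 5.58%. Every member lay below control without overlap in KPC cells, unlike all genes, so nothing is read from the gap between these shares. The difference was not tested, because the 2 tables were normalised separately. The 17 include Brca2, which was too low in tumours to be tested.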

How the results depend on the processing

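No member changed sign of a called value in any setting tried. All counts of lower members in cells under RMC-6236 and the combination, against control and against each other, stayed within 1.5 times. Depth is unknown, so how far it limits low genes such as Brca2 cannot be said.

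Some counts moved by more than 1.5 times, among them SW1990 tazemetostat higher calls and tumour combination higher calls against control, and the cause was not tested. Without the filter, KPC interaction calls were 9 (14 as reported), tumour RMC-6236 lower calls 0 (1), tumour combination against RMC-6236 higher calls 0 (1), SW1990 tazemetostat higher calls 10 (18) and lower calls 1 (2). With rescaled libraries, tumour combination against RMC-6236 had 2 higher (1), tumour combination against control 1 lower (0), and SW1990 tazemetostat 4 lower (2). With a pseudocount of 0.1, PSN1 interaction calls were 12 (7). With only the compared arms, combination against RMC-6236 had 0 higher in tumours (1) and 0 in SW1990 cells (1). Without the 2 acinar-rich libraries, tumour combination against RMC-6236 had 0 higher (1).

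Leaving out each library in turn gave 9 to 17 KPC interaction calls, 0 to 1 lower in tumours with RMC-6236, 0 to 7 higher in tumours for combination against RMC-6236, 17 to 32 higher and 0 to 2 lower for combination against control, 1 to 2 higher in PSN1 cells with tazemetostat, 0 to 1 higher in SW1990 cells for combination against RMC-6236, and 10 to 21 higher and 1 to 3 lower in SW1990 cells with tazemetostat.

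The median correlation of deviations between samples of the same replicate number was 0.02 in PSN1, -0.00 in SW1990, 0.02 in KPC cells and -0.12 in tumours. Between samples of other numbers it was -0.01, 0.03, -0.00 and 0.05 in that order. The highest value for the same number in SW1990 cells was 0.391, beside 0.201 for other numbers. Medians near 0 cannot exclude pairing of some samples. With the replicate block, tumour combination against RMC-6236 had 0 higher (1), tumour combination against control 1 lower (0) and 25 higher (26), and SW1990 tazemetostat 1 lower (2). In SW1990 combination against RMC-6236, 62% of all called genes were higher as deposited and 50.1% after rescaling.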
